A study of Rattus norvegicus with 8 samples.

Results

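Most of the genes described here encode parts of the energy-converting machinery of mitochondria and of the ribosome that mitochondria use to make their own proteins. All were chosen by the letters with which their symbols begin, such as Atp5 for ATP synthase, Nduf for complex I, Cox for cytochrome c oxidase, Mrpl and Mrps for the mitochondrial ribosome, Timm and Tomm for import, Pdk and Aldh, without use of their measured values. Symbols were at hand for 1998 of the 32623 gene rows. The set therefore holds only genes with a symbol at hand and does not cover whole gene families. The set held 34 genes. By role they were 6 subunits of ATP synthase, 8 genes of the respiratory chain and of ubiquinone synthesis, 10 proteins of the mitochondrial ribosome, 3 protein import components, 4 enzymes of pyruvate and fuel metabolism and 3 aldehyde dehydrogenases. Of these, 33 had enough reads to be tested and 1, Mrpl1, did not.

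RNA was sequenced from retinal ganglion cells (RGCs), the neurons whose axons form the optic nerve, of Sprague Dawley rats. The cells were taken at embryonic day 21 (E21), when RGCs extend axons readily, or at postnatal day 11 (P11), when that capacity has been lost, and the comparison asks which genes differ between these ages. Both groups were of the same strain, and the labels name no allele or treatment for either. There were 4 libraries per age, each from a litter of its own, and the cells were isolated by immunopanning, a purification on antibody-coated dishes that removes macrophages and then retains cells with Thy1 on their surface. A library thus holds the RNA of all cells retained on the dish, of whatever type.

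Mitochondria oxidise pyruvate, fatty acids and other fuels in the matrix and pass the electrons along the respiratory chain in the inner membrane, where complexes I, III and IV pump protons and ATP synthase uses the returning protons to make ATP. Most of these proteins are encoded in the nucleus, made in the cytosol and brought in by the translocases of the outer membrane (TOM) and inner membrane (TIM), while a small core is encoded by mitochondrial DNA and made on the mitochondrial ribosome. Neurons rely on this supply for ion pumping and synaptic work, and growing axons carry mitochondria toward their tips.

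Counted reads ranged from 13899299 to 20116017 per library, with a median of 17366421 at E21 and 16068115.5 at P11. Levels are given as CPM, the counts of a gene per 1000000 counted reads of the library after scaling by trimmed mean of M values (TMM), and differences as log2 fold changes of E21 over P11, so that a positive value means higher at E21. Markers of other cells moved with age. The summed level of 5 vascular or mural cell markers, of which Rgs5 and Notch3 held most, was 3.52 to 5.41 CPM at E21 and 283 to 556 CPM at P11. For 7 photoreceptor markers the summed level was 27.1 to 30.6 CPM at E21 and 68.6 to 84.7 CPM at P11. Rgs9 gave the largest part (20.9 and 36.2 CPM on average), while Arr3 overlapped between ages (0.981 and 1.20 CPM). For 4 Müller cell or astrocyte markers the sum was 0.892 to 1.24 CPM and 11.6 to 18.8 CPM, with Gfap at or below 3 counts in every library. Hes1 carried most of this sum at P11 (0.260 and 13.4 CPM on average), while Sox9 was lower at P11 (0.623 and 0.354 CPM). In turn, 4 bipolar cell markers gave 41.4 to 49.0 CPM and 87.3 to 94.5 CPM, a rise carried by Prkca (38.3 and 87.5 CPM on average), while Grm6 (5.97 and 3.37 CPM) and Lhx4 (0.842 and 0.400 CPM) were lower at P11. The 3 amacrine markers found gave 427 to 444 CPM and 316 to 325 CPM, nearly all of it Pax6, which RGCs share, while Gad1 was higher at P11 (0.856 and 13.8 CPM). The 3 microglial markers stayed at or below 0.952 CPM. The part of these cells in the differences given here was not tested, and in bulk samples fewer cells of a type and less RNA per cell cannot be told apart. The usual RGC markers could not be paired with gene identifiers here, so the cell label was not checked against them.

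Most of the genes changed little with age, and the changes that passed the test went mainly toward P11. With an adjusted p below 0.01 (edgeR quasi-likelihood test, Benjamini-Hochberg over all 14043 genes tested), 16 of 33 genes, or 48.5%, were higher at P11, against 34.6% of all genes tested, and 4, or 12.1%, were higher at E21, against 33.8% of all genes. When a log2 fold change beyond 1 was also required, 3 of 33 genes, or 9.09%, passed, against 24.7% of all genes. These were Pdk1 and Acads, higher at E21, where the background was 8.16%, and Pdk2, higher at P11, where it was 16.5%. The share that passed the adjusted p alone in either direction was 60.6%, against 68.4% of all genes. Among the 9754 genes whose mean level was at least that of the lowest tested member, Mrpl13 at 8.37 CPM, 32.9% were higher at P11 and 41.5% higher at E21 by adjusted p, and 18.0% passed both thresholds (7.81% higher at E21 and 10.1% at P11).

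The changes were also small: the 33 genes had -0.19 as their median log2 fold change, against 0.0042 over all genes tested, and 24 of 33, or 72.7%, had a negative value, against 49.7% of all genes. Their median absolute change was 0.30, against 0.49 over all genes, and 27 of 33 lay within 0.5 of 0. In 17 genes all 4 P11 libraries lay above all 4 E21 libraries (35.9% of all genes did so, and 33.9% of the 9754), in 5 all E21 libraries lay above (35.4% of all genes, and 42.8% of the 9754), and in 11 the ages overlapped. Summed over the members, there were 2389 ± 70.4 CPM at E21 against 2939 ± 67.4 CPM at P11 (SD, n = 4), which is 1.23 times as much at P11. As a share of counted reads, the members took 0.226 to 0.242% at E21 and 0.291 to 0.306% at P11, with no overlap between ages. Because Atp5f1b and Cox6a1 carry much of this sum, it describes the abundant members more than the typical one.

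**Figure D1:**
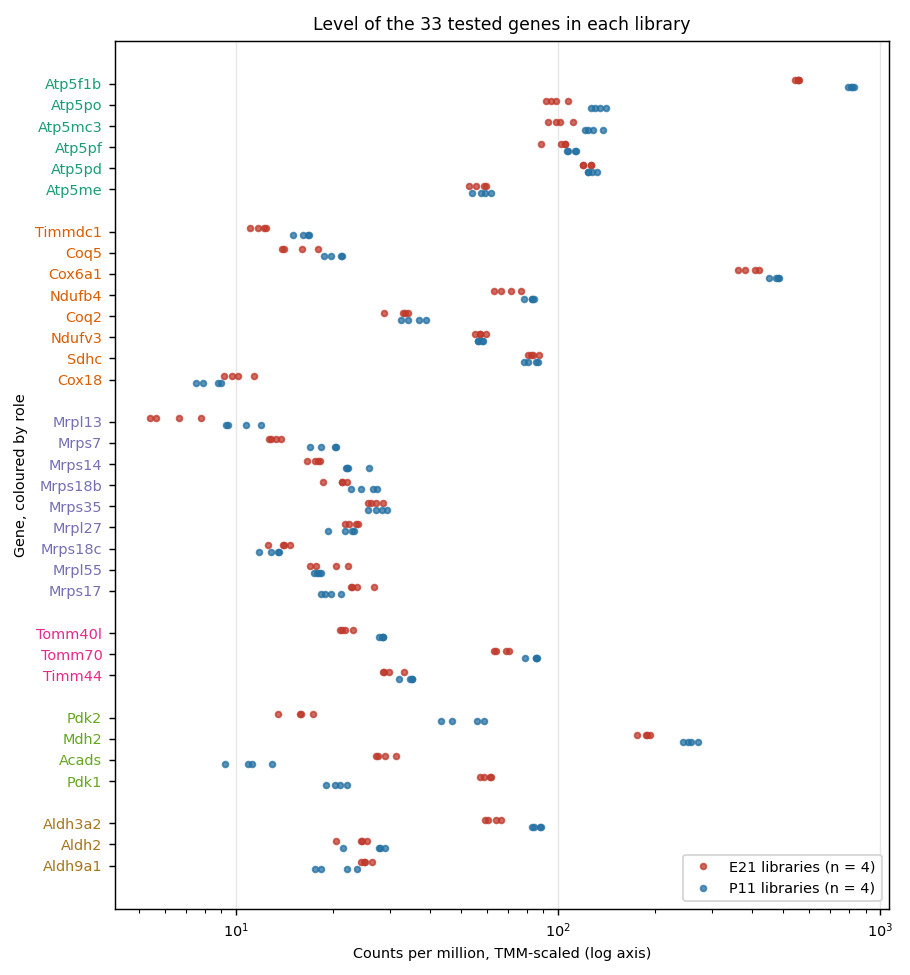
Level of each tested gene in every library (x axis: TMM-scaled CPM, log axis; y axis: genes grouped by role; red points: 4 E21 libraries; blue points: 4 P11 libraries). In 17 genes the blue points all lie to the right of the red ones, and in 5 they all lie to the left. Levels are not corrected for transcript length and are to be read within a gene only.

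The replicates of most genes lay close together, which is why changes well under a doubling passed the test. The median coefficient of variation over the 33 tested genes was 6.44% at E21 and 5.68% at P11. At E21 the lowest was that of Atp5f1b, 1.32%, and at P11 that of Tomm40l, 1.25%. The widest spreads were those of Mrpl13 at E21, 17.2%, and Aldh9a1 at P11, 14.5%.

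**Figure D2:**
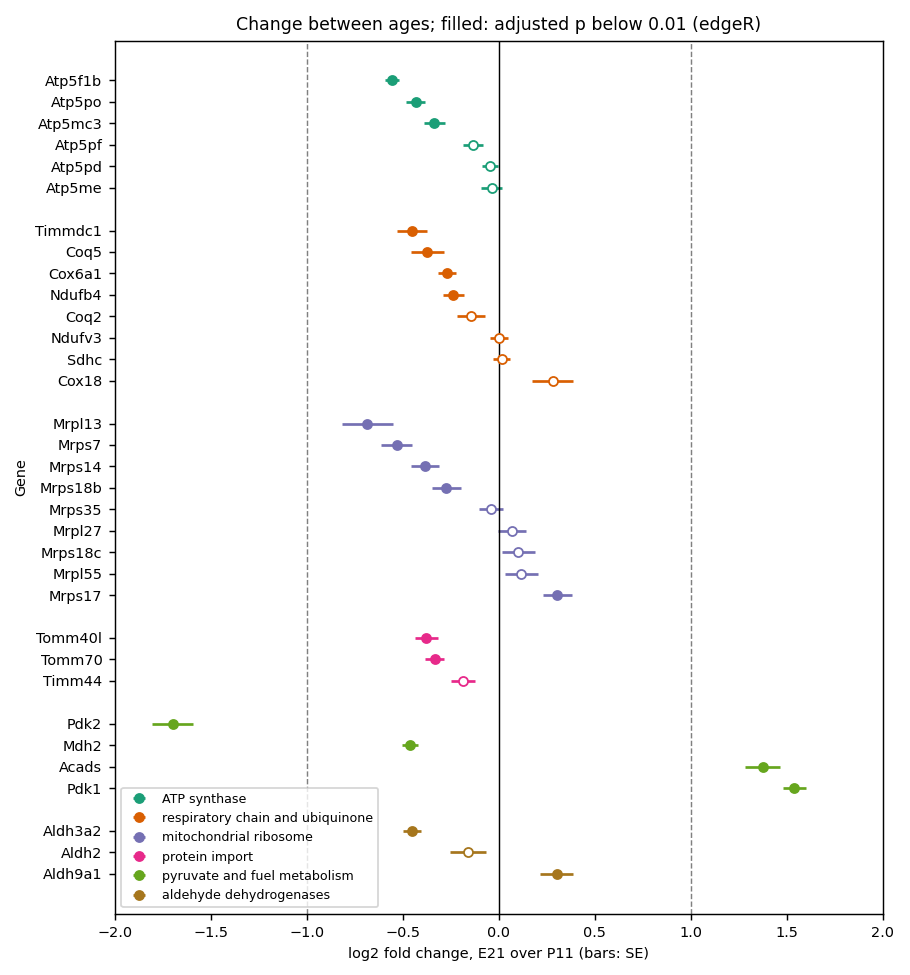
Log2 fold change, E21 over P11, of the 33 tested genes by role (points: edgeR estimate; bars: SE; filled: adjusted p below 0.01; dashed lines: log2 fold changes of -1 and 1). Pdk1 and Acads lie beyond the upper line and Pdk2 beyond the lower, while the other filled points that are higher at P11 lie between -0.69 and -0.24.

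The largest changes in the set were in the genes of pyruvate and fuel metabolism, where Pdk1 and Pdk2 changed in opposite directions. Of the pyruvate dehydrogenase kinases, only these 2 had a symbol at hand, so others of the family were not examined. Pyruvate dehydrogenase kinases phosphorylate the pyruvate dehydrogenase complex and so restrain the entry of pyruvate into the citric acid cycle. Pdk1, the isoform known for its induction by the hypoxia-inducible factor, and Pdk2, an isoform found widely in adult tissues, are encoded by separate genes. Because the results turn on this pair, the RefSeq promoter windows of both are shown, 250 bases before to 50 bases after the annotated start, on the GRCr8 assembly. Pdk1 lies on the plus strand at chr3:77113264-77113563 and Pdk2 on the minus strand at chr10:80483863-80484162. Each is written 5′ to 3′ along the gene, and capitals mark the letters ACGTG or GCGTG, the core bound by hypoxia-inducible factors, on either strand.
Pdk1: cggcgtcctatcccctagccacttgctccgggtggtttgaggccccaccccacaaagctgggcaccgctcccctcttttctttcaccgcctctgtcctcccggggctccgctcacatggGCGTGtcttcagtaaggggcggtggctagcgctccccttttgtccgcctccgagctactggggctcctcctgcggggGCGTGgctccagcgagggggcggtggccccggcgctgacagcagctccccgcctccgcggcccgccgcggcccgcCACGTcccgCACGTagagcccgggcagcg
Pdk2: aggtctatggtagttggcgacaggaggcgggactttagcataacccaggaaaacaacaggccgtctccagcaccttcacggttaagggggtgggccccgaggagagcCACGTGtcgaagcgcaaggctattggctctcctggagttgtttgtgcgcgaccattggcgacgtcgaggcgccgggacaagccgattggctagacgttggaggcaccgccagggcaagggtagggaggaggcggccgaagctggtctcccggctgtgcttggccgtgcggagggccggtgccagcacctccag
The Pdk1 window held 4 such matches. Of these, 2 began 131 and 54 bases before the start, and 2 began at bases 22 and 31 counted from the start as base 1. The Pdk2 window held 1 palindromic stretch, 143 bases before the start, that reads as a match on both strands and is also an E-box (CACGTG). Matches of this short core are common, since 41.6% of all 33469 RefSeq promoter windows held at least 1, so they describe the windows and nothing further.

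Pdk1 (ENSRNOG00000001517) stood at 57.2, 58.7, 61.9 and 61.4 CPM in the E21 libraries and at 20.3, 22.0, 19.0 and 20.9 CPM in the P11 libraries. The E21 libraries were all far above those of P11. The level was 2.91-fold higher at E21, a log2 fold change of 1.54 (SE 0.06), with an edgeR adjusted p of 4.80e-13.

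Pdk2 (ENSRNOG00000004172) moved the other way, with 15.7, 17.3, 15.9 and 13.5 CPM in E21 replicates and 56.1, 58.7, 46.7 and 43.2 CPM in those of P11. Again the ages did not overlap, and the P11 libraries were spread more widely than those of E21. The level was 3.25-fold higher at P11, a log2 fold change of -1.70 (SE 0.11), with an edgeR adjusted p of 5.13e-09. In the same order, the P11 libraries had 373, 464, 283 and 556 CPM of vascular or mural marker RNA. The part of these cells in the Pdk2 level was not tested.

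The read counts of the kinases can be set against each other inside a library, which removes any effect of scaling. The ratio of Pdk1 to Pdk2 reads was 3.64, 3.39, 3.89 and 4.54 in the E21 libraries and 0.362, 0.375, 0.407 and 0.485 in the P11 libraries, a 9.50-fold difference. Pdk1 reads thus outnumbered Pdk2 reads in each E21 library and were outnumbered in each P11 library. Because each kinase was already apart between ages, in opposite directions, their ratio had to separate as well, and it is given with no test. The levels of Pdk1 and Pdk2 added together were 73.0 to 77.8 CPM at E21 and 64.1 to 80.7 CPM at P11, so these sums overlapped. Kinases of the family without a symbol at hand are not in these sums. Reads are not corrected for transcript length, and the ratio therefore compares ages and not the amounts of the isoforms. For the same reason the sums are not amounts of kinase RNA.

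Acads (ENSRNOG00000001177), the short-chain acyl-CoA dehydrogenase of fatty acid oxidation, stood at 31.3, 29.1, 27.2 and 27.5 CPM in E21 replicates and at 9.21, 11.2, 10.9 and 12.9 CPM in those of P11. No P11 library reached the lowest E21 library. The level was 2.59-fold higher at E21, a log2 fold change of 1.37 (SE 0.09), with an edgeR adjusted p of 4.00e-10. The fourth gene of this role, Mdh2 (ENSRNOG00000001440), the malate dehydrogenase of the citric acid cycle and of the malate-aspartate shuttle, was higher at P11, with 187, 192, 188 and 176 CPM in E21 replicates and 259, 271, 252 and 244 CPM in those of P11. Its ages were well apart as well, although the change was smaller, 1.38-fold (log2 fold change -0.46, SE 0.04, edgeR adjusted p = 3.98e-08). All 4 genes of the role passed the adjusted p, 2 in each direction, against 68.4% of all genes tested in either direction. All 4 also did so in each of the 16 other settings that gave fold changes.

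**Figure D3:**
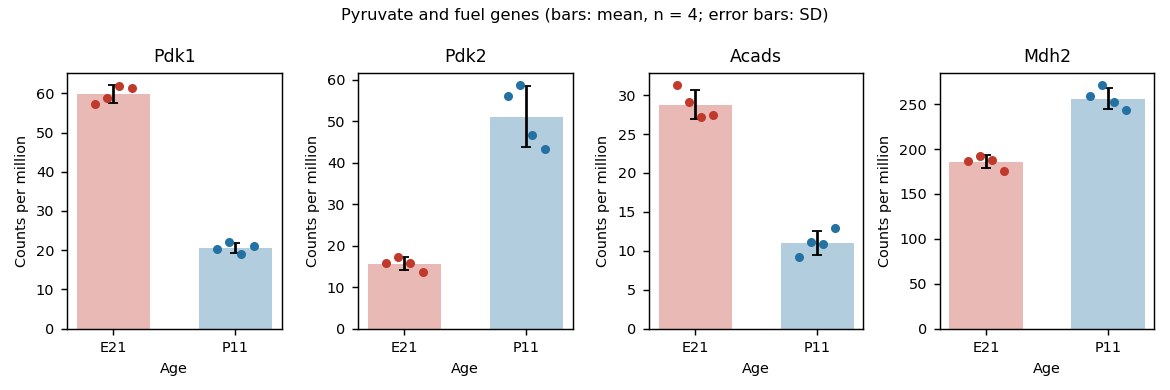
Levels of Pdk1, Pdk2, Acads and Mdh2 by age (y axis: TMM-scaled CPM from 0; bars: mean of 4 libraries; error bars: SD; points: libraries). Pdk1 and Acads are lower at P11 and Pdk2 and Mdh2 higher, without overlap between ages.

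ATP synthase is the rotary enzyme that makes ATP, and 6 of its subunits had a symbol at hand. All 6 had negative log2 fold changes, from -0.56 to -0.04 with a median of -0.24, but they did not move by the same amount. With an adjusted p below 0.01, 3 of the 6 were higher at P11, against 34.6% of all genes tested. Atp5f1b (ENSRNOG00000002840), which encodes the catalytic beta subunit of the F1 head, stood at 542, 559, 554 and 555 CPM in E21 replicates and at 812, 827, 796 and 814 CPM in those of P11. Its libraries were tightly grouped within each age and far apart between ages. The level was 1.47-fold higher at P11 (log2 fold change -0.56, SE 0.04, edgeR adjusted p = 2.76e-10).

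Atp5po, the subunit that joins the F1 head to the peripheral stalk, rose from 98.2 ± 6.71 to 133 ± 6.03 CPM (SD, n = 4; edgeR adjusted p = 7.34e-07). Atp5mc3, a gene for the c subunit whose copies form the proton-driven ring, rose from 101 ± 7.63 to 128 ± 7.27 CPM (edgeR adjusted p = 3.44e-05). For both, the lowest P11 library exceeded the highest E21 library. The remaining 3 subunits, which belong to the peripheral stalk or the membrane part, did not pass. Atp5pf had a log2 fold change of -0.13 (edgeR adjusted p = 0.0290) with its P11 libraries above those of E21, and it passed at an adjusted p of 0.00377 when libraries were scaled by total reads only. Atp5pd was at 123 ± 4.07 and 127 ± 3.91 CPM and Atp5me at 56.7 ± 3.09 and 58.2 ± 3.26 CPM (SD, n = 4), and both overlapped between ages.

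Whether Atp5f1b changed more than the other subunits was asked with read ratios inside each library. Atp5f1b reads per Atp5me read were 9.32 to 10.2 at E21 and 12.9 to 15.3 at P11, a 1.43-fold difference, and per Atp5pd read 4.39 to 4.65 and 6.13 to 6.56, a 1.42-fold difference. Per Atp5pf read they were 5.29 to 6.11 and 7.20 to 7.60. In these 3 ratios the ages did not overlap, but the ranges of the levels had already fixed this. Each exact permutation p, 0.0286 (two-sided, n = 4 per age), therefore had to be the smallest that this design allows and adds no support. It was 0.0476 after Benjamini-Hochberg adjustment over the 5 ratios tested, which were picked after the levels were known. For Atp5mc3 the ratio was 5.02 to 5.97 and 5.89 to 6.56 (exact permutation p = 0.0571, adjusted 0.0714) and for Atp5po 5.16 to 5.91 and 5.79 to 6.30 (exact permutation p = 0.0857, adjusted 0.0857), so a difference in change from these subunits was not shown. Near-identical copies are common for genes of this enzyme, and since reads with several positions were set aside, counts of the subunits may be low by unequal amounts. Alignments that were not unique made up 37.4 to 42.2% of all entries tallied per library at E21 and 31.7 to 36.3% at P11. These are shares of entries and not of reads, since alignments were tallied.

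**Figure D4:**
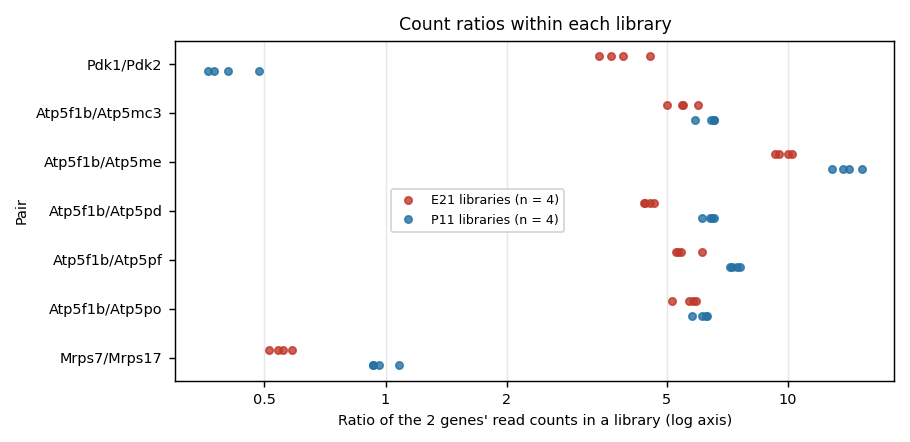
Ratio of the read counts of 2 genes within each library (x axis, log scale) for the 7 pairs compared (y axis), with 4 E21 libraries in red and 4 P11 libraries in blue. Pdk1/Pdk2 falls from between 3.39 and 4.54 to between 0.362 and 0.485, while the Atp5f1b ratios to Atp5me, Atp5pd and Atp5pf and the Mrps7/Mrps17 ratio are higher at P11.

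Promoter windows were found in RefSeq for 28 of the 34 genes, and letters bound by factors that are known for nuclear genes of mitochondrial proteins were counted in them on both strands. A YY1 match (AAGATGGC) was found in 8 of 28 windows, or 28.6%, against 3.17% of all windows and 3.68% of the 21851 windows of coding genes. For an ETS match (CCGGAAG), read by GABP, the figures were 9 of 28, or 32.1%, against 8.75% and 10.7%, and for the palindrome-like NRF1 letters (GCATGCGC) 4 of 28, or 14.3%, against 2.47% and 3.11%. The cyclic AMP response element (TGACGTCA) was in 2 of 28, those of Mrpl55 and Mdh2, against 1.83% of all windows. The hypoxia core described above was in 22 of 28, or 78.6%, against 45.8% of coding windows, and the E-box CACGTG, which contains that core on both strands, in 4 of 28, or 14.3%, against 7.02%. A match is a description of the letters and not a bound site.

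The matches were spread over genes that rose and genes that did not. YY1 letters were in 5 of the 14 windows of genes higher at P11 by adjusted p, in 0 of 4 of those higher at E21 and in 3 of 9 of those that did not pass. ETS letters were in 4 of 14, 1 of 4 and 4 of 9, and NRF1 letters in 2 of 14, 0 of 4 and 2 of 9. The ATP synthase genes Atp5po, which rose, and Atp5me, which did not pass, are shown side by side because their windows hold both the NRF1 and the YY1 letters. Atp5po lies on the minus strand at chr11:44657434-44657733 and Atp5me on the plus strand at chr14:1464610-1464909 (GRCr8), written 5′ to 3′ along the gene, with the NRF1 and YY1 letters on either strand in capitals.
Atp5po: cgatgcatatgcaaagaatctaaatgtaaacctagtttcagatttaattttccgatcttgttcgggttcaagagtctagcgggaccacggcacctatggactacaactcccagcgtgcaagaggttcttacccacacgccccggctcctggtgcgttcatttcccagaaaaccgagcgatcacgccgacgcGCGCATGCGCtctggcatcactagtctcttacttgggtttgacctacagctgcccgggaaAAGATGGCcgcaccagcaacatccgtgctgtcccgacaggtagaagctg
Atp5me: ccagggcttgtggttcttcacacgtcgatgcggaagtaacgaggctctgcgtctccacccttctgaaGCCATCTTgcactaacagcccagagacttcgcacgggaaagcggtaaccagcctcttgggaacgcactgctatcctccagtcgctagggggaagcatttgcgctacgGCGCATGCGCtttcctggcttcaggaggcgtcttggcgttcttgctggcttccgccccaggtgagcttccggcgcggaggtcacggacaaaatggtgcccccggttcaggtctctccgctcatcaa
In both, the NRF1 stretch reads as a match on each strand, with starts 59 and 57 bases before the annotated start in Atp5po and 76 and 74 bases before it in Atp5me. The YY1 letters of Atp5po began at base 2 of the transcript, on the strand of the gene, and those of Atp5me lay 183 bases before the start, on the other strand.

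The respiratory chain and ubiquinone genes had log2 fold changes between -0.45 and 0.28 with a median of -0.19. With an adjusted p below 0.01, 4 of the 8 were higher at P11, against 34.6% of all genes tested. Timmdc1, an assembly factor of complex I, was at 11.7, 12.4, 11.02 and 12.2 CPM in E21 replicates and at 15.1, 16.2, 16.8 and 16.7 CPM in those of P11. All P11 libraries lay above those of E21 (log2 fold change -0.45, SE 0.08, edgeR adjusted p = 7.11e-05). Cox6a1, a subunit of cytochrome c oxidase, was at 363, 419, 407 and 379 CPM in E21 replicates and at 481, 484, 473 and 452 CPM in those of P11 (log2 fold change -0.27, edgeR adjusted p = 6.19e-05), and its ages did not overlap either.

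Ndufb4, an accessory subunit of complex I, rose from 69.5 ± 5.73 to 82.1 ± 2.70 CPM (SD, n = 4; edgeR adjusted p = 9.51e-04), and Coq5, a methyltransferase of ubiquinone synthesis, from 15.5 ± 1.91 to 20.2 ± 1.22 CPM (edgeR adjusted p = 0.00101). Sdhc, a membrane anchor of complex II, and Ndufv3, a small subunit at the NADH-oxidising end of complex I, lay at nearly the same level in both ages. Sdhc was at 83.4 ± 2.61 and 82.6 ± 3.92 CPM and Ndufv3 at 57.2 ± 1.88 and 57.2 ± 1.09 CPM (SD, n = 4), with SEs of 0.05 on log2 fold changes of 0.01 and -9.85e-05. Coq2, the prenyltransferase of the same ubiquinone pathway as Coq5, did not pass (log2 fold change -0.14, edgeR adjusted p = 0.0751). Cox18, an assembly factor that inserts part of cytochrome c oxidase into the membrane, was the only gene of this role with all E21 libraries above those of P11, at 10.1 ± 0.921 and 8.28 ± 0.718 CPM, and it did not pass at 0.01 (edgeR adjusted p = 0.0251).

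The proteins of the mitochondrial ribosome went both ways. Of 9 tested, 4 passed toward P11 and 1 toward E21 with an adjusted p below 0.01, against 34.6% and 33.8% of all genes tested, and the median log2 fold change was -0.04. In Mrpl13, of the large subunit, the level was 5.62, 7.80, 6.66 and 5.41 CPM in E21 replicates and 11.96, 9.41, 9.33 and 10.7 CPM in those of P11. The ages did not overlap, and the gene had the largest SE in the set, 0.13, on a log2 fold change of -0.69 (edgeR adjusted p = 1.61e-04).

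Of the small subunit, Mrps7 rose from 13.1 ± 0.481 to 19.0 ± 1.64 CPM (SD, n = 4; log2 fold change -0.53, edgeR adjusted p = 1.35e-05) and Mrps14 from 17.6 ± 0.696 to 23.0 ± 1.89 CPM (edgeR adjusted p = 1.41e-04). Mrps18b was also higher at P11 (log2 fold change -0.27, edgeR adjusted p = 0.00371), but its adjusted p was 0.0179 without E21 replicate 4 and 0.0130 without P11 replicate 1 or 2. Mrps17, another small-subunit protein, went against these, with 22.8, 26.8, 22.8 and 23.8 CPM in E21 replicates and 19.7, 21.2, 18.3 and 18.8 CPM in those of P11. Here every E21 library was above every P11 library (log2 fold change 0.30, SE 0.07, edgeR adjusted p = 0.00145). Mrps7 reads per Mrps17 read were 0.512 to 0.584 at E21 and 0.931 to 1.08 at P11, a 1.78-fold difference, given with no test because these genes were already apart in opposite directions.

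The other mitochondrial ribosomal proteins tested, Mrpl27, Mrpl55, Mrps18c and Mrps35, had log2 fold changes between -0.04 and 0.12, and their ages overlapped. Mrpl1 (ENSRNOG00000002070) had between 1 and 7 counts in each library, too few for the test, and no difference was detectable at this depth. Summed over the role, there were 165 ± 8.21 CPM at E21 against 178 ± 9.26 CPM at P11 (SD, n = 4), and the ages overlapped.

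Cytosolic ribosomal proteins offered a comparison from the same libraries. All 8 that could be named were higher at E21 with an adjusted p below 0.01, against 33.8% of all genes tested. Their log2 fold changes were 0.82 to 1.20 with a median of 1.02. For example, Rplp0, a stalk protein of the large subunit, averaged 532 ± 15.9 CPM at E21 but 242 ± 15.0 CPM at P11 (SD, n = 4). Their summed level at P11 was 0.483 times that at E21, where the mitochondrial ribosomal sum was 1.08 times. Cytosolic ribosomal protein genes have many near-identical copies in the genome, so their counts are uncertain where reads with several positions were set aside.

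All 3 protein import genes had negative log2 fold changes, from -0.38 to -0.19. With an adjusted p below 0.01, 2 were higher at P11, against 34.6% of all genes tested. Tomm40l, a relative of the channel protein of the outer membrane translocase, was at 23.0, 21.1, 21.8 and 21.4 CPM in E21 replicates and at 28.6, 28.4, 28.6 and 27.8 CPM in those of P11. The P11 libraries were almost equal and all above E21 (log2 fold change -0.38, SE 0.06, edgeR adjusted p = 2.13e-05). Tomm70, a receptor for incoming carrier proteins, rose from 66.6 ± 3.52 to 83.8 ± 3.18 CPM (SD, n = 4; edgeR adjusted p = 9.66e-06). Timm44, which ties the import motor to the inner membrane channel, had a log2 fold change of -0.19 with overlapping ages (edgeR adjusted p = 0.0126). It passed in 7 of the other settings, including a looser adjusted p of 0.05 on the same fit. Among the others were the fits without E21 replicate 4 (0.00397) or without P11 replicate 4 (0.00413).

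The aldehyde dehydrogenases, which oxidise reactive aldehydes to acids, were split as well. They entered the set by symbol alone, and whether each acts in mitochondria was not checked. Aldh3a2, which acts on long-chain fatty aldehydes, was at 59.4, 66.3, 64.1 and 60.6 CPM in E21 replicates and at 88.1, 83.2, 88.0 and 83.8 CPM in those of P11. Its ages were clearly apart (log2 fold change -0.45, SE 0.05, edgeR adjusted p = 1.88e-07). Aldh9a1, known for its part in carnitine synthesis and in the oxidation of aminoaldehydes, was at 26.4, 25.1, 24.5 and 24.9 CPM in E21 replicates and at 18.3, 22.0, 17.5 and 23.7 CPM in those of P11.

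All P11 libraries of Aldh9a1 lay below those of E21, but P11 replicate 4 only narrowly (log2 fold change 0.30, SE 0.09, edgeR adjusted p = 0.00496). This call was lost in 7 other settings. Leaving out E21 replicate 1 or 2 gave adjusted p-values of 0.0149 and 0.0132, and leaving out P11 replicate 1 or 3 gave 0.0183 and 0.0260. Aldh2, the mitochondrial enzyme that clears acetaldehyde, overlapped between ages (log2 fold change -0.16, edgeR adjusted p = 0.132), and without P11 replicate 3 its log2 fold change was -0.26 with an adjusted p of 0.00739.

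By summed level, ATP synthase differed most between ages, with 1032 ± 27.6 CPM at E21 against 1368 ± 26.3 CPM at P11 (SD, n = 4), or 1.33 times as much at P11. The sum was 1.24 times as high at P11 for protein import, 1.19 times for the aldehyde dehydrogenases, 1.17 times for pyruvate and fuel metabolism, and 1.15 times for the respiratory chain. Most of the ATP synthase sum was Atp5f1b alone, at 553 CPM on average at E21 and 812 CPM at P11. By median log2 fold change, ATP synthase (-0.24) changed less than protein import (-0.34). In the pyruvate and fuel role the sum was carried by Mdh2 and Pdk2, while Pdk1 and Acads were lower at P11 and the median over its 4 genes was a log2 fold change of 0.46. In each of these 5 roles all P11 libraries lay above all E21 libraries.

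**Figure D5:**
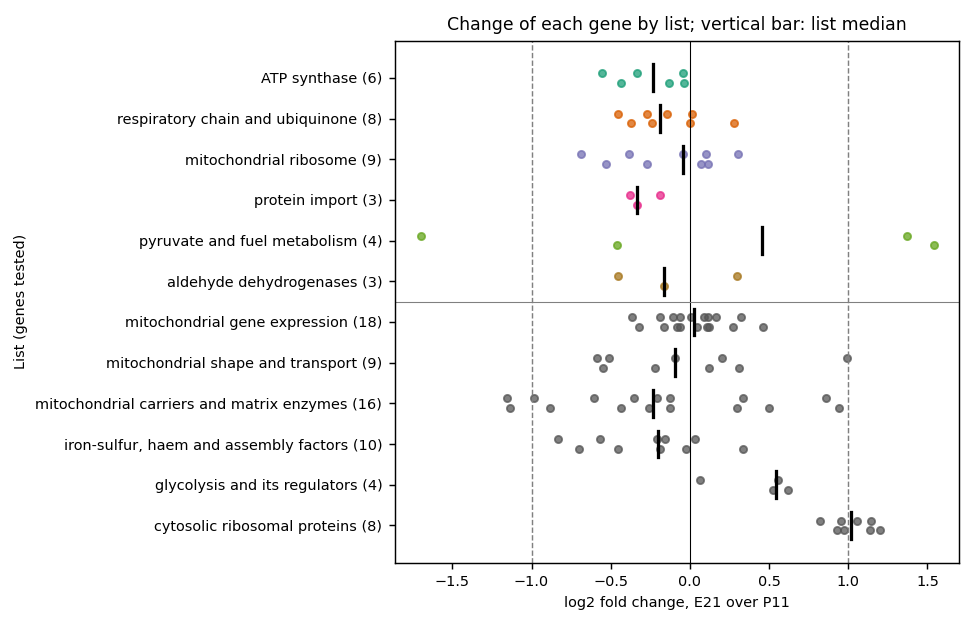
Log2 fold change, E21 over P11, of each tested gene by list (points), with the list median (vertical bar) and the number of genes tested in parentheses. The upper 6 lists are the roles of the set and the lower 6 are other lists, of which the cytosolic ribosomal proteins all lie between 0.82 and 1.20.

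Further mitochondrial genes, in 4 lists of 53 tested genes together, were also mixed. Of the 53, 18 were higher at P11, 10 were higher at E21 and 25 did not pass the adjusted p, with a median log2 fold change of -0.11, and 2 passed both thresholds, each of them higher at P11. The shares of the 53 were close to those of all genes for P11 (34.0% against 34.6%) and below them for E21 (18.9% against 33.8%). Those past both thresholds were Bdh1, which interconverts the ketone bodies, from 30.7 ± 1.34 CPM up to 67.6 ± 3.14 CPM (SD, n = 4; log2 fold change -1.14, edgeR adjusted p = 7.02e-12), and Slc8b1, the mitochondrial sodium-calcium exchanger, a gene of low level, from 1.39 ± 0.446 to 3.13 ± 0.616 CPM (log2 fold change -1.15, edgeR adjusted p = 3.28e-04). Both were among the 16 carriers and matrix enzymes, of which 8 were higher at P11 and 3 at E21, against 34.6% and 33.8% of all genes tested. Fh, the fumarase that acts just before Mdh2 in the citric acid cycle, was higher at P11 like Mdh2 (log2 fold change -0.61, edgeR adjusted p = 1.22e-08).

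Among 18 genes of mitochondrial DNA and RNA upkeep and translation, 14 did not pass. Toward E21 3 passed and toward P11 1, against 33.8% and 34.6% of all genes tested. Tfam, which packages mitochondrial DNA and starts its transcription, had the largest change toward E21, 25.4 ± 2.03 against 18.4 ± 0.745 CPM (SD, n = 4; log2 fold change 0.46, edgeR adjusted p = 1.78e-05). The gene higher at P11 was Grsf1, an RNA-binding protein of mitochondrial RNA granules (log2 fold change -0.32, edgeR adjusted p = 1.05e-04).

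For shape and transport, 3 of 9 genes were higher at E21 and 4 at P11, shares near those of all genes tested (33.8% and 34.6%). Myo19, the myosin that moves mitochondria on actin, averaged 30.9 ± 2.13 CPM at E21 against 15.5 ± 1.48 CPM at P11 (SD, n = 4; log2 fold change 0.99, edgeR adjusted p = 4.54e-09). Dnm1l, the dynamin-like protein that divides mitochondria, was at 125 ± 2.13 and 187 ± 4.73 CPM (log2 fold change -0.58, edgeR adjusted p = 3.57e-10). Of 10 iron-sulfur, haem and assembly genes, 5 were higher at P11 and 1 at E21, against 34.6% and 33.8% of all genes tested. Those higher at P11 were led by Ttc19, needed for complex III (log2 fold change -0.83). The gene higher at E21 was Ppox, which makes protoporphyrin (log2 fold change 0.34).

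Of 4 glycolysis genes tested, the cytosolic route that makes pyruvate, 3 were higher at E21 by adjusted p, against 33.8% of all genes tested. Eno3, an enolase, had a log2 fold change of 0.62 (edgeR adjusted p = 4.08e-04), Pfkfb2, which sets the level of an activator of phosphofructokinase, 0.56 (2.48e-08), and Pfkl, a phosphofructokinase, 0.53 (9.76e-09). Pgm2, a phosphoglucomutase, was at 27.2 ± 2.09 and 26.0 ± 0.381 CPM (SD, n = 4) and did not pass. This list held only the genes whose symbols were at hand and is a small part of the pathway.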

How the data were processed

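Retinal ganglion cells from 8 rat litters, 4 per age, were profiled by RNA-seq. The deposited values are whole read counts per Ensembl gene, not normalized. According to the paper's methods and the submitters' processing notes, the authors trimmed reads with cutadapt 1.16, aligned them to Rnor_6.0 with STAR 2.5.3a and counted them with HTSeq 0.6.1. The annotation release and strand setting are not given in the sources used here, so overlapping genes on opposite strands cannot be told apart, and reads with several positions were set aside. The lines that name no gene (no feature, 15.4 to 19.2% of all entries, ambiguous, 0.610 to 0.805%, and the alignments that were not unique) were left out.

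Gene symbols came from a supplementary table of which 1998 rows could be read, and all 1998 matched a count row. Genes were filtered with filterByExpr, which left 14043, scaled by TMM and tested with edgeR 4.0.16 (quasi-likelihood, robust) in R 4.3.3, with Benjamini-Hochberg adjustment over all genes tested. Thresholds were an adjusted p of 0.01 and, where stated, a log2 fold change of 1. The procedure was tested on simulated data. Other settings included DESeq2 1.42.0, other scalings and filters, a looser adjusted p of 0.05 on the main fit, and each library left out. The rule for the genes named was those past both thresholds, and in each role the largest change in each direction among those with an adjusted p below 0.01, with the other members by value, range or count. The members were taken by the letters of their symbols and not by their values. Earlier results of these data were known when the members, lists and read ratios were chosen. Chi-square per degree of freedom between replicates was 2.86 to 8.12, above sampling noise. Motifs were searched in RefSeq windows of 250 bases before to 50 bases after each start (GRCr8). No promoter window was at hand for 6 genes.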

Additional observations from a re-analysis of the deposited data

Results flagged for a closer look

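In 6 of 68 groups of 4 libraries (34 genes at each age), 1 library lay far from the other 3 by Dixon's criterion, where chance gives about 1 in 20 groups, or 3.4. Aldh2 was at 21.5 CPM in P11 replicate 3, with the others at 27.7 to 28.9 CPM. Ndufb4 was at 78.1 CPM in the same library, with the others at 83.1 to 84.0 CPM. In P11 replicate 2, Mrps14 was at 25.9 CPM against 22.0 to 22.3 CPM and Tomm70 at 79.1 CPM against 85.0 to 85.6 CPM. Timm44 was at 32.1 CPM in P11 replicate 4, against 34.7 to 35.2 CPM, and Atp5pf was at 88.6 CPM in E21 replicate 1, against 102 to 105 CPM.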

How the results depend on the processing

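Under the 17 other settings, the number of genes past both thresholds stayed at 2 higher at E21 and 1 higher at P11. By adjusted p, 3 to 5 genes were higher at E21, with 5 only where the cutoff was loosened to 0.05 on the main fit. There were 15 to 18 higher at P11, and of all genes 2317 to 4205 passed both thresholds. Of 528 fold changes in these settings, which include those of the main fit at the looser cutoff, 496 kept their direction and side of the threshold. In 25 of 33 genes this held throughout. Of the fold changes, 10 lost and 13 gained significance, and 9 changed sign, all in Sdhc and Ndufv3, whose values lie near 0. Gains at the looser cutoff, in Timm44, Atp5pf and Cox18, reflect the cutoff alone. Sdhc was at -0.04 with scaling by total reads and by upper quartile (-0.0409 and -0.0352), -0.0243 under the filter of 10 counts per library, and -0.0157, -0.0245 and -0.0030 without E21 replicate 2, P11 replicate 3 and P11 replicate 4, with a range over libraries left out of -0.0245 to 0.0296. Ndufv3 was at 0.000917, 0.0242 and 0.0065 without E21 replicate 3, E21 replicate 4 and P11 replicate 1, in a range of -0.0195 to 0.0242. The median of all genes moved between -0.05 and 0.0097 and that of the members between -0.26 and -0.18. Deviations of same-numbered libraries correlated at 0.15 and 0.13 for replicates 2 and 4, above any other pair (0.07 at most), but at -0.04 and -0.06 for replicates 1 and 3 (over 10650 genes), so the numbers did not pair all libraries, and with a replicate block the counts were 2, 1, 4 and 16, and 3463 of all genes.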
